A study of Rattus norvegicus with 6 samples.

Results

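Genes known from lymphocytes and their thymic precursors were read in pooled rat hearts, and for T cell receptor genes the pools of one strain lay further apart than the means of the strains. The list held 41 genes of T cells, B cells, thymocytes and natural killer (NK) cells, together with genes shared by most lymphocytes or leukocytes. The genes were chosen with values from these same arrays in view, above all those of the arrays Dahl S 3 and congenic 1. The excess on these 2 arrays is therefore given as a description, with no test. Of the 41 genes, 34 were measured by a probe set annotated to that gene alone, out of 14217 genes measured in all. The 7 others, Cd27, Ccr7, Rag1, Rag2, Dntt, Cd79a and Pax5, were not analysed here. With Rag1, Rag2 and Dntt among them, none of the measured genes belonged to antigen receptor gene recombination, the step that defines developing thymocytes and B cell precursors.

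The samples were whole hearts of male rats of 2 strains, killed at 53 days of age after weaning at 30 days and a diet with 0.3% salt. Dahl S rats, an inbred strain, develop high blood pressure when fed salt. The congenic rats, S.LEW(10)x12x2x3x5, carry a part of chromosome 10 from the Lewis rat on the same Dahl S background, so both strains share the Dahl S genome elsewhere. There were 3 arrays per strain, and every array held pooled RNA of 2 hearts, so that 6 rats stood behind each strain. All rats were born on one day, and each cage held one rat of either strain. The sources used here do not say whether blood was flushed from the hearts or which neighbouring tissue was trimmed off.

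T cells recognise peptides through the T cell receptor, which signals inside the cell through the CD3 chains and the zeta chain Cd247. The coreceptors CD4 and CD8 bring the kinase Lck to the receptor, Lck and Zap70 phosphorylate the adaptor Lat, and the factors Tcf7 and Lef1 act in thymocytes and in resting T cells. B cells signal through CD79 and carry Ms4a1 (CD20), whereas cytotoxic T cells and NK cells store granzymes and perforin. A healthy heart holds few lymphocytes beside its muscle cells, fibroblasts, vessel cells and macrophages.

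Values are log2 expression per probe set as the authors deposited them, so that a difference of 1 is a doubling. Heart muscle was plain on all arrays: 11 of 12 listed cardiomyocyte genes were measured, with mean levels of 14.2 on each array. The median of all probe sets lay between 6.54 and 6.56 on each array. Of the 34 lymphocyte genes, 21 had a mean below that of the median probe set (6.55) and 13 did not. Array Dahl S 3 stood apart. On it 48 of the 14217 genes (0.338%) lay at least 1 log2 unit above both other Dahl S arrays, and 14 of the 48 were lymphocyte genes of the list. On congenic 1 the same count was 10 genes (0.0703%), of which 9 were on the list. The other arrays had 2 (Dahl S 1), 1 (Dahl S 2), 17 (congenic 2) and 1 (congenic 3) such genes, with 0 of the list among them. The spiked hybridization controls were also brighter on Dahl S 3 (11.54) and congenic 2 (11.55) than on the other 4 arrays (10.67 to 10.83), and congenic 1, the other array with high T cell genes, was among the 4. With this level as a block in the fit, 0 of the 34 genes passed. The median strain difference was -0.13, as without the block, since each level held equally many arrays of either strain. Such a block cannot change the differences, so the unchanged median does not show whether the level mattered.

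**Figure D1:**
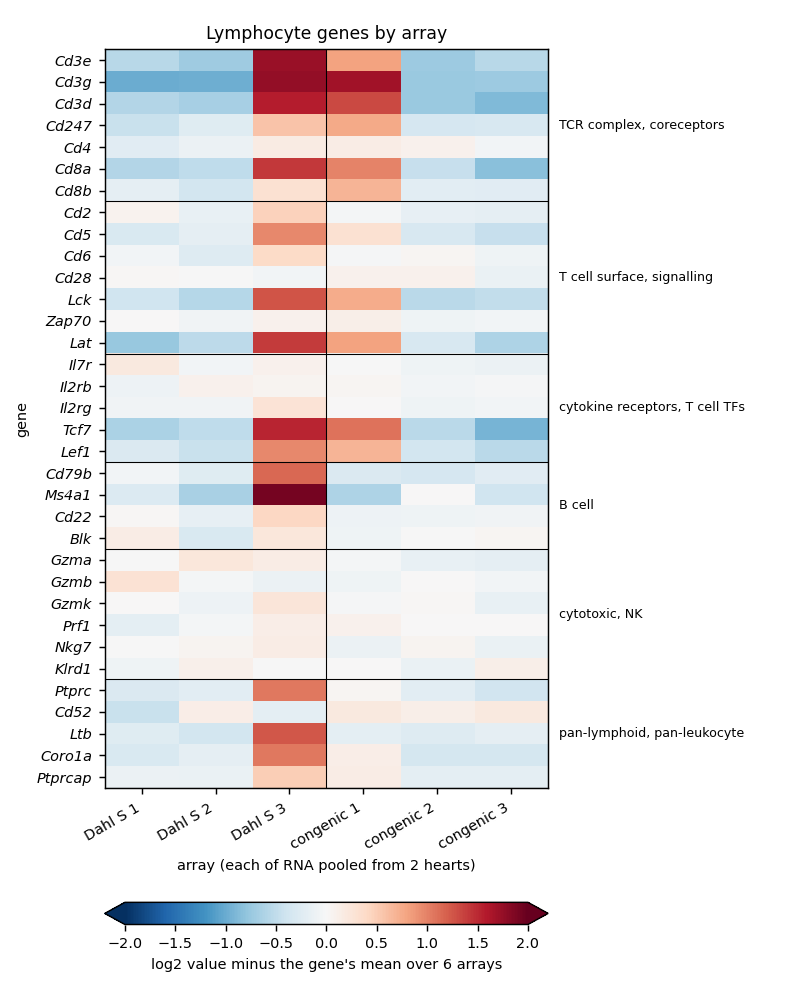
Heat map of the 34 measured lymphocyte genes (rows, grouped by role) on the 6 arrays (columns), coloured by the log2 value minus the gene's mean over the 6 arrays, with colours saturating at 2 log2 units. The Dahl S 3 column is red for T, B and pan-leukocyte genes, the congenic 1 column is red mainly for T cell receptor and signalling genes, and the cytotoxic and NK rows are pale on every array.

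The T cell receptor genes showed the widest spread. All 7 listed genes of the receptor complex and its coreceptors were measured, and in all 7 the highest 2 arrays were Dahl S 3 and congenic 1, an order that 7.73% of all genes had. The mean level of the 7 genes was 5.84 (Dahl S 1), 5.83 (Dahl S 2) and 7.42 (Dahl S 3) in Dahl S, and 7.26 (congenic 1), 5.90 (congenic 2) and 5.83 (congenic 3) in the congenic strain. In a bulk sample of this kind, more T cells and more RNA per T cell cannot be told apart.

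The chains of CD3 carried the pattern most clearly. Their genes are neighbours: Cd3g, Cd3d and Cd3e follow each other on rat chromosome 8 with 0 protein-coding genes between them, and Cd3g and Cd3d are read in opposite directions. The stretches of 250 bases before their transcription starts are shown with those of the 2 starts of Lck, since these genes varied together over the arrays. They are RefSeq sequences of assembly GRCr8, read 5′ to 3′ on the strand of the gene. Capitals mark the core of the motif bound by ETS factors, AGGAAG, or its reverse complement CTTCCT, found by a search of these letters alone. The windows are chr8:54183919-54184168 on the minus strand for Cd3g, chr8:54185269-54185518 on the plus strand for Cd3d and chr8:54211771-54212020 on the minus strand for Cd3e. Those of Lck, both on the minus strand, are chr5:147201268-147201517 and chr5:147183651-147183900.
Cd3g: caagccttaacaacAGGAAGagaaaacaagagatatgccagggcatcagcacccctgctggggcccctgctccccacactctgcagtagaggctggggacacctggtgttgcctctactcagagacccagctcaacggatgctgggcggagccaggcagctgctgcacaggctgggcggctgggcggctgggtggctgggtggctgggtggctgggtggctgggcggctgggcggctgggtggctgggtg
Cd3d: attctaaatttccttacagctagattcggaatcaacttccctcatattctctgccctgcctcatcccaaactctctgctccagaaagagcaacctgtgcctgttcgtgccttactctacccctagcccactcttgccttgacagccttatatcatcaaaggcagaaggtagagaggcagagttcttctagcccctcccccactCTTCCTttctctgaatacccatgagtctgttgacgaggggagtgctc
Cd3e: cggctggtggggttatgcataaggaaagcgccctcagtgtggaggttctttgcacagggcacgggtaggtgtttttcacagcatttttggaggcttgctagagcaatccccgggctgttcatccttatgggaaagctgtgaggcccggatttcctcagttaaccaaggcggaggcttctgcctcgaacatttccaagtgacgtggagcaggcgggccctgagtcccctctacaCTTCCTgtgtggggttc
Lck, upstream start: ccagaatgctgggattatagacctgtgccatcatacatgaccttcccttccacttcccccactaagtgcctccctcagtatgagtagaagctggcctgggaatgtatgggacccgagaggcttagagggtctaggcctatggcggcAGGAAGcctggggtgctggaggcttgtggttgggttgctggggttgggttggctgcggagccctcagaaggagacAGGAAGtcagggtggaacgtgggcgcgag
Lck, downstream start: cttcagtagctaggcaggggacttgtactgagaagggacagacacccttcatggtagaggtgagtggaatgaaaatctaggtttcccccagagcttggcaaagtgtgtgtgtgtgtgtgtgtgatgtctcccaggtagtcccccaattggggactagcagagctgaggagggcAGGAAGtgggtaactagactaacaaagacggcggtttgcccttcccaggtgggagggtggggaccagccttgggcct

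Counted back from the start, the motif began at base -236 for Cd3g, -47 for Cd3d and -17 for Cd3e. Of the 26 windows that the table held for 25 of the measured genes, 16 (61.5%) had the ETS core on either strand, against 9878 of 33469 windows of all genes (29.5%). The RUNX core TGTGGT was in 10 of the 26 (38.5%) against 14.5% of all windows, and CAGGTG, the E-box letters that E proteins bind, in 9 of 26 (34.6%) against 15.9%. The 3 motifs were counted separately and their matches may share bases. A match is a description of letters in a window and not a measured binding site.

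Cd3g, the gamma chain, stood at 6.37, 6.39 and 9.12 on Dahl S 1, 2 and 3 and at 9.05, 6.63 and 6.64 on congenic 1, 2 and 3. Dahl S 3 was thus 6.71-fold above the mean of the other Dahl S arrays, and congenic 1 was 5.33-fold above the mean of the other congenic arrays. One array of each strain was high and the remaining 4 lay within 0.28 of each other, so the strains overlapped fully. Cd3d, the delta chain, read 5.95, 5.87 and 8.11 in Dahl S and 7.87, 5.79 and 5.66 in the congenic strain. Its excess was 4.58-fold on Dahl S 3 and 4.41-fold on congenic 1, near-equal on both. Cd3e, the epsilon chain, read 6.13, 5.97 and 8.41 in Dahl S and 7.49, 5.96 and 6.13 in the congenic strain. Here Dahl S 3 had the larger excess, 5.14-fold against 2.72-fold on congenic 1. A dimmer probe set of Cd3e had the same order at the top, with 6.07 on Dahl S 3 and 5.09 on congenic 1 against 4.46 to 4.75 elsewhere.

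Cd247, the zeta chain, was the gene of the complex that was higher on congenic 1 than on Dahl S 3. It read 5.88, 6.09 and 6.90 in Dahl S and 7.09, 5.99 and 6.01 in the congenic strain. The excess was 1.88-fold on Dahl S 3 and 2.12-fold on congenic 1. Its other probe set was higher on Dahl S 3 (6.17) than on congenic 1 (5.82), so the order of these arrays was not settled for Cd247.

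The CD8 coreceptor genes followed those of CD3, and Cd4 hardly varied. Cd8a and Cd8b, the chains of CD8 on cytotoxic T cells and on most thymocytes, are neighbours on chromosome 4. Cd8a read 5.51, 5.59 and 7.51 in Dahl S and 7.10, 5.63 and 5.27 in the congenic strain, an excess of 3.89-fold on Dahl S 3 and 3.13-fold on congenic 1. Of its 3 probe sets, a second showed the pattern too, with 7.18 on Dahl S 3 and 7.17 on congenic 1 against 5.34 to 5.55 elsewhere. The third spanned 5.76 to 6.11 and was also highest on these arrays. Cd8b read 5.16, 4.97 and 5.65 in Dahl S and 6.02, 5.13 and 5.11 in the congenic strain, and was higher on congenic 1 (1.88-fold) than on Dahl S 3 (1.50-fold). Cd4, the coreceptor of helper T cells, which rat macrophages also carry, spanned only 5.85 to 6.25 over the arrays.

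**Figure D2:**
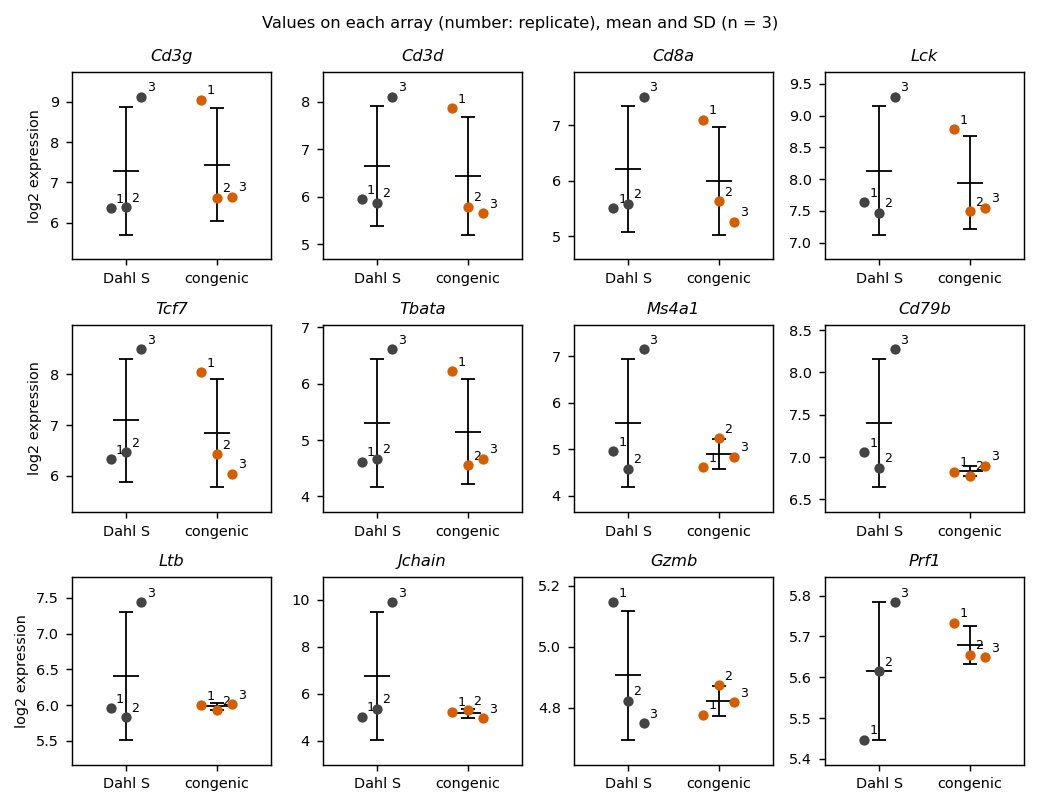
Log2 expression of 12 genes on each array (points, with the replicate number beside them) by strain, with the mean and SD of the 3 arrays of each strain. In Cd3g, Cd3d, Cd8a, Lck, Tcf7 and Tbata, replicate 3 of Dahl S and replicate 1 of the congenic strain are high, in Ms4a1, Cd79b, Ltb and Jchain replicate 3 of Dahl S alone is high, and Gzmb and Prf1 span less than 0.5 log2 units. The vertical axes differ between genes.

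T cell signalling genes repeated the pattern in the members with the widest spread. Of 8 listed genes, 7 were measured, and 5 of them were highest on Dahl S 3, as were 26.5% of all genes (3774 of 14217). Lck, the kinase that starts T cell receptor signalling, read 7.63, 7.47 and 9.30 in Dahl S and 8.78, 7.50 and 7.55 in the congenic strain. Dahl S 3 was 3.35-fold and congenic 1 was 2.40-fold above the rest of its strain. Lat, the membrane adaptor downstream of Zap70, read 5.69, 5.92 and 7.83 in Dahl S and 7.25, 6.13 and 5.83 in the congenic strain, which is an excess of 4.09-fold and 2.42-fold. Both genes were thus high on the same pair of arrays as CD3, with the larger excess on Dahl S 3.

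The surface molecules Cd5, Cd6 and Cd2 stood higher on Dahl S 3 than on the other Dahl S arrays, with less on congenic 1. Cd5, which tunes receptor signalling and is also on some B cells, read 4.83, 4.96 and 6.11 in Dahl S and 5.45, 4.82 and 4.68 in the congenic strain. Its excess was 2.31-fold on Dahl S 3 and 1.63-fold on congenic 1. Cd6, a relative of Cd5, read 7.24, 7.04 and 7.69 in Dahl S and 7.28, 7.33 and 7.21 in the congenic strain, with no excess on congenic 1. Cd2, an adhesion receptor of T and NK cells, read 6.62, 6.39 and 7.01 in Dahl S and 6.50, 6.38 and 6.36 in the congenic strain. Congenic 1 was no more than 0.13 above the rest of its strain for Cd2. Zap70, the kinase recruited to the receptor, spanned 6.93 to 7.14 in its brightest probe set, while a second one reached 7.61 on Dahl S 3 and 7.05 on congenic 1 against 6.71 to 6.92 elsewhere. The costimulatory receptor Cd28 spanned 4.30 to 4.52 and was dim on all arrays.

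The T cell transcription factors varied over the arrays and the cytokine receptors hardly did. Tcf7, which directs early thymocytes to the T lineage and stays on in naive T cells, read 6.33, 6.47 and 8.50 in Dahl S and 8.05, 6.42 and 6.04 in the congenic strain. Its excess was 4.28-fold on Dahl S 3 and 3.52-fold on congenic 1. Lef1, its close relative, read 6.25, 6.09 and 7.50 in Dahl S and 7.22, 6.17 and 6.00 in the congenic strain, an excess of 2.51-fold and 2.20-fold. A second probe set of Lef1 had the same arrays on top, with 6.44 and 5.85 against 4.69 to 4.91 elsewhere. The cytokine receptor chains Il7r (5.09 to 5.40), Il2rb (6.33 to 6.50) and Il2rg (9.48 to 9.85) spanned less than 0.5 over all arrays. Il7r, on naive T cells, was highest on Dahl S 1, but its dimmer probe set was highest on congenic 2 (3.76), with 3.50 on Dahl S 1.

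Among the B cell genes, Ms4a1 and Cd79b were high on Dahl S 3 alone, and Cd22 and Blk stood out less. Of 6 listed genes 4 were measured, and by the brightest probe set all 4 were highest on Dahl S 3 (26.5% of all genes). By at least 1 log2 unit over the other Dahl S arrays, 2 of the 4 were (0.338% of all genes). In 0 of the 4 were Dahl S 3 and congenic 1 the highest pair (7.73% of all genes), which says little for 4 genes. Ms4a1, the B cell surface protein CD20, read 4.96, 4.59 and 7.15 in Dahl S and 4.61, 5.24 and 4.84 in the congenic strain, so Dahl S 3 was 5.19-fold above the rest of its strain. Congenic 1 was the lowest congenic array for Ms4a1. Cd79b, a signalling chain of the B cell receptor, read 7.06, 6.87 and 8.27 in Dahl S and 6.83, 6.78 and 6.90 in the congenic strain, 2.47-fold above the rest on Dahl S 3. Cd22, which dampens B cell receptor signalling, read 6.22, 6.05 and 6.62 in Dahl S and 6.10, 6.11 and 6.14 in the congenic strain. Blk, a kinase of B cells, read 4.98, 4.53 and 5.06 in Dahl S and 4.75, 4.83 and 4.87 in the congenic strain, with Dahl S 1 nearly as high as Dahl S 3. Its other probe set was highest on congenic 3 (4.82), with 4.45 on Dahl S 3, so the order was not settled for Blk. Congenic 1, with its high CD3 and CD8 genes, thus had no excess of the 4 B cell genes. Dahl S 3 had both, with the B cell excess clearest in Ms4a1 and Cd79b.

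Cytotoxic and NK genes were flat, as most genes were: 967 of all 14217 genes spanned at least 0.5 log2 units. The 6 genes spanned 0.24 to 0.41 over the arrays, and 0 of them reached 1 log2 unit above the rest of a strain on Dahl S 3 or congenic 1. Of all genes, 0.338% and 0.0703% did, so the count says little for 6 genes. Gzma, a granzyme of NK and cytotoxic T cells, read 4.01, 4.25 and 4.17 in Dahl S and 3.98, 3.88 and 3.84 in the congenic strain. Gzmb, the granzyme that activates caspases, read 5.15, 4.82 and 4.75 in Dahl S and 4.78, 4.88 and 4.82 in the congenic strain. Dahl S 3 was the lowest Dahl S array for Gzmb. The pore-forming perforin Prf1 spanned 5.45 to 5.78, Gzmk 5.77 to 6.16, the granule protein Nkg7 6.42 to 6.70 and the NK receptor chain Klrd1 5.32 to 5.56. Of the 6 genes, 5 were dimmer than the median probe set.

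Pan-leukocyte genes were high on Dahl S 3, with a smaller excess or none on congenic 1. Ptprc, the phosphatase CD45 of all white blood cells, read 7.46, 7.53 and 8.80 in Dahl S and 7.78, 7.54 and 7.37 in the congenic strain, an excess of 2.47-fold on Dahl S 3 and 1.25-fold on congenic 1. Coro1a, an actin regulator of leukocytes, read 7.84, 7.97 and 9.21 in Dahl S and 8.28, 7.80 and 7.79 in the congenic strain, an excess of 2.47-fold and 1.40-fold. Ptprcap, a partner of CD45 in lymphocytes, read 7.34, 7.32 and 7.94 in Dahl S and 7.61, 7.26 and 7.26 in the congenic strain. All 3 were highest on Dahl S 3 and next highest on congenic 1. Ltb, the lymphotoxin chain by which lymphocytes instruct lymphoid stroma, read 5.96, 5.83 and 7.44 in Dahl S and 6.00, 5.93 and 6.01 in the congenic strain. It followed the B cell genes, with 2.93-fold on Dahl S 3 and no excess on congenic 1. Cd52, a surface peptide of lymphocytes and other leukocytes, followed neither pattern: it read 6.35, 6.93 and 6.61 in Dahl S and 6.99, 6.92 and 6.99 in the congenic strain.

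**Figure D3:**
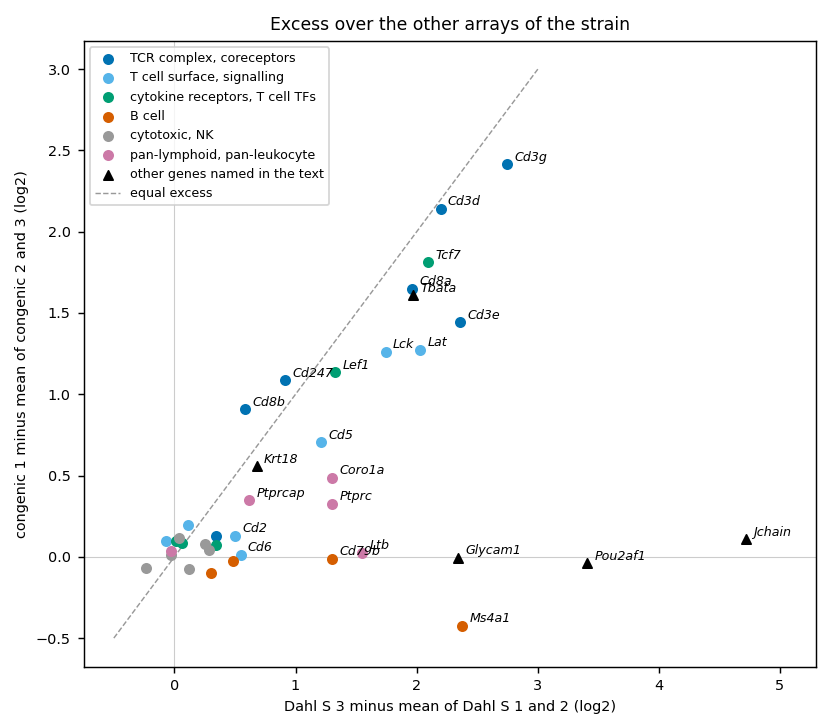
Excess of Dahl S 3 over the mean of the other 2 Dahl S arrays (horizontal axis, log2) against the excess of congenic 1 over the mean of the other 2 congenic arrays (vertical axis, log2), 1 point per gene, coloured by role, with triangles for 5 genes outside the list. T cell receptor and signalling genes of wide spread lie near the line of equal excess, mostly below it. Cd2, Cd4, Cd6, Cd28 and Zap70 have little excess on congenic 1. B cell genes lie along or below the horizontal line of no excess on congenic 1, and cytotoxic and NK genes gather near the origin.

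Counted at 1 log2 unit above both other arrays of the strain, 8 genes passed on both arrays (Cd3e, Cd3g, Cd3d, Cd8a, Lck, Lat, Tcf7 and Lef1). On Dahl S 3 only, 6 passed (Cd5, Cd79b, Ms4a1, Ptprc, Ltb and Coro1a), and on congenic 1 only, Cd247 passed. Of all genes, 0.338% passed on Dahl S 3 and 0.0703% on congenic 1, and the list was chosen with these arrays in view. Closest to that limit on congenic 1 were Lef1, inside at 1.05, and Cd8b, outside at 0.90. On Dahl S 3 they were Cd5, inside at 1.14, and Cd247, outside at 0.81. Over the list, 24 of 34 genes were highest on Dahl S 3 (26.5% of all genes), and in 18 of 34 Dahl S 3 and congenic 1 were the highest pair (7.73% of all genes).

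The genes outside the list whose profile came closest to the mean of the 7 T cell receptor genes were sought among the 945 genes outside it that spanned at least 0.5 log2 units over the 6 arrays. The correlation is a description over 6 arrays, and it turns on the same 2 high arrays in each gene. The closest was Tbata (r = 0.995), a gene of thymic epithelium and testis, at 4.62, 4.67 and 6.61 in Dahl S and 6.22, 4.55 and 4.67 in the congenic strain. Next came Krt18 (r = 0.993), a keratin of simple epithelia, at 5.25, 5.35 and 5.97 in Dahl S and 5.90, 5.38 and 5.31 in the congenic strain. Sh2d1a, the adaptor SAP of T and NK cells (r = 0.979), Stat4, a factor downstream of interleukin 12 (r = 0.973), Dusp2, a phosphatase of activated lymphocytes (r = 0.966), and Satb1, a chromatin organiser of thymocytes (r = 0.964), followed. The last 4 of the 10 were the T cell adaptor Fyb1, Limd2, the defensin Defa5 and the cystine transporter Slc7a11, with r of at least 0.943. Tbata was also the 1 gene outside the list, of the 10 genes, that was at least 1 log2 unit above the rest on congenic 1.

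Other genes of the same pathways, outside the list, were examined in the same way. Of 27 genes of T cell receptor signalling 23 were measured, 14 were highest on Dahl S 3 (26.5% of all genes) and in 9 Dahl S 3 and congenic 1 were the highest pair (7.73% of all genes). Sh2d1a read 3.91, 3.83 and 5.05 in Dahl S and 4.68, 3.86 and 3.66 in the congenic strain, and Fyb1 read 6.71, 6.55 and 7.81 and then 7.39, 6.84 and 6.84. Both thus followed CD3. Of 16 further T cell transcription factors 10 were measured, with Satb1 at 9.48 on Dahl S 3, which was 0.49 above the higher of the other Dahl S arrays, and at 9.47 on congenic 1, which was 0.69 above the higher of the other congenic arrays. Foxo1, which keeps naive T cells at rest but is widely expressed, was highest on Dahl S 1 (8.56) and lowest on Dahl S 3 (7.48). Of 16 genes of thymocyte development 11 were measured. Among them Myb, a factor of dividing progenitors, read 3.85, 3.92 and 5.10 in Dahl S and 4.57, 3.60 and 3.92 in the congenic strain, and Dgka, a lipid kinase of T cells, reached 9.26 on Dahl S 3 and 8.97 on congenic 1 against 8.59 to 8.75 elsewhere.

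Some B cell genes outside the list repeated the single high array. Of 21 genes 14 were measured, and 11 were highest on Dahl S 3 (26.5% of all genes). Only 2, Jchain and Pou2af1, were so by at least 1 log2 unit over the other Dahl S arrays (0.338% of all genes). Cxcr5 was lowest on Dahl S 3 (8.37), Ebf1 was highest on Dahl S 2 (8.07) and Fcer2 on congenic 3 (8.03). In 0 of 14 were Dahl S 3 and congenic 1 the highest pair (7.73% of all genes), a count that says little among so few genes. Jchain, which joins the subunits of secreted IgA and IgM, read 5.02, 5.36 and 9.91 in Dahl S and 5.24, 5.30 and 4.97 in the congenic strain. Pou2af1, a B cell coactivator, lay between 3.61 and 4.10 on 5 arrays and at 7.21 on Dahl S 3. Among 14 measured NK and cytotoxic genes of 19, the widest spread was that of the NK receptor gene Ncr3, from 4.06 to 4.72, with its lowest value on Dahl S 3. Klrc2, a receptor chain of NK cells, spanned 3.53 to 4.04, highest on Dahl S 3. Among 9 measured genes of lymphocyte traffic of 14, the early activation marker Cd69 was highest on Dahl S 3 (5.62) and next on congenic 1 (5.36), and the receptor Ccr6 was highest on Dahl S 3 (6.04) with 5.42 on congenic 1.

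Some markers of lymphoid organs were high on the same arrays, and others were not. Of 14 listed thymic epithelium genes 8 were measured, all dimmer than the median probe set, with a mean level of 4.55 to 5.25 in Dahl S, highest on Dahl S 3, and of 4.50 to 5.01 in the congenic strain, highest on congenic 1. Foxn1, Psmb11, Prss16, Ccl25, Aire and Ctsv of that list were not analysed here. Ly75, an endocytic receptor of thymic epithelium and dendritic cells, read 4.05, 3.92 and 5.20 in Dahl S and 4.52, 3.76 and 3.79 in the congenic strain. Krt5 read 5.59, 5.57 and 6.47 and then 5.94, 5.91 and 5.52. Of the 8 genes, 6 were highest on Dahl S 3 (26.5% of all genes), and in 5 Dahl S 3 and congenic 1 were the highest pair (7.73% of all genes). At least 1 log2 unit above the rest of their strain were 2 of the 8 genes on Dahl S 3 (Tbata and Ly75) and 1 on congenic 1 (Tbata). Of all genes, 0.338% and 0.0703% were. Pax1 was lowest on Dahl S 3 (3.80), and Cldn4 spanned 3.56 to 3.81. Of 9 genes of lymphoid stroma 8 were measured, with a mean level of 5.78 to 6.44 in Dahl S, highest on Dahl S 3, and of 5.72 to 5.85 in the congenic strain, where congenic 1 was at 5.78. Only Glycam1 and Cxcl13 of these 8 were at least 1 log2 unit above the other Dahl S arrays on Dahl S 3 (0.338% of all genes). In 1 of the 8 were Dahl S 3 and congenic 1 the highest pair (7.73% of all genes). Glycam1, a ligand for lymphocyte homing in lymph node venules, read 5.93, 5.83 and 8.22 in Dahl S and 6.09, 6.23 and 5.96 in the congenic strain. The B cell chemokine Cxcl13 read 6.88, 7.06 and 8.23 and then 6.65, 6.73 and 6.54. Madcam1 (4.69 to 4.90), Chst4 (3.94 to 4.12) and Tnfsf11 (3.49 to 3.70) spanned little. Tbata and Ly75 were therefore high on the arrays with high CD3, and Glycam1 and Cxcl13 on the array with high B cell genes. The part of these tissues in the result was not tested.

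Markers of other cells had other profiles. The 9 measured adipocyte genes of 10 had mean levels of 7.99, 8.74 and 9.34 in Dahl S and 8.42, 9.14 and 8.34 in the congenic strain. They were thus high on Dahl S 3, like the lymphocyte genes, and on congenic 2, unlike them. Ucp1, the uncoupling protein of brown fat, reached 11.44 on Dahl S 3 and 10.92 on congenic 2 against 9.45 on congenic 1. The 7 measured dendritic cell genes of 10 ranged from 5.90 to 6.19 in mean level, highest on Dahl S 3 and next on congenic 1, with Cd83, a marker also of activated B cells, at 8.41 on Dahl S 3 and 7.75 on congenic 1 against 7.09 to 7.20 elsewhere. The 11 measured macrophage genes had mean levels of 7.80 to 8.04 in Dahl S and of 8.05 to 8.16 in the congenic strain, highest on congenic 3, with Cd68 from 7.27 to 7.86 (highest on Dahl S 3) and Adgre1 from 6.04 to 6.82 (highest on congenic 3). The medians of the neutrophil, mast cell, erythroid, mesothelium, fibroblast, endothelium, proliferation and cardiomyocyte lists lay between -0.19 and 0.16 on Dahl S 3 and between -0.13 and 0.13 on congenic 1, relative to each gene's mean over the arrays. The part of these cells in the lymphocyte values was not tested.

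**Figure D4:**
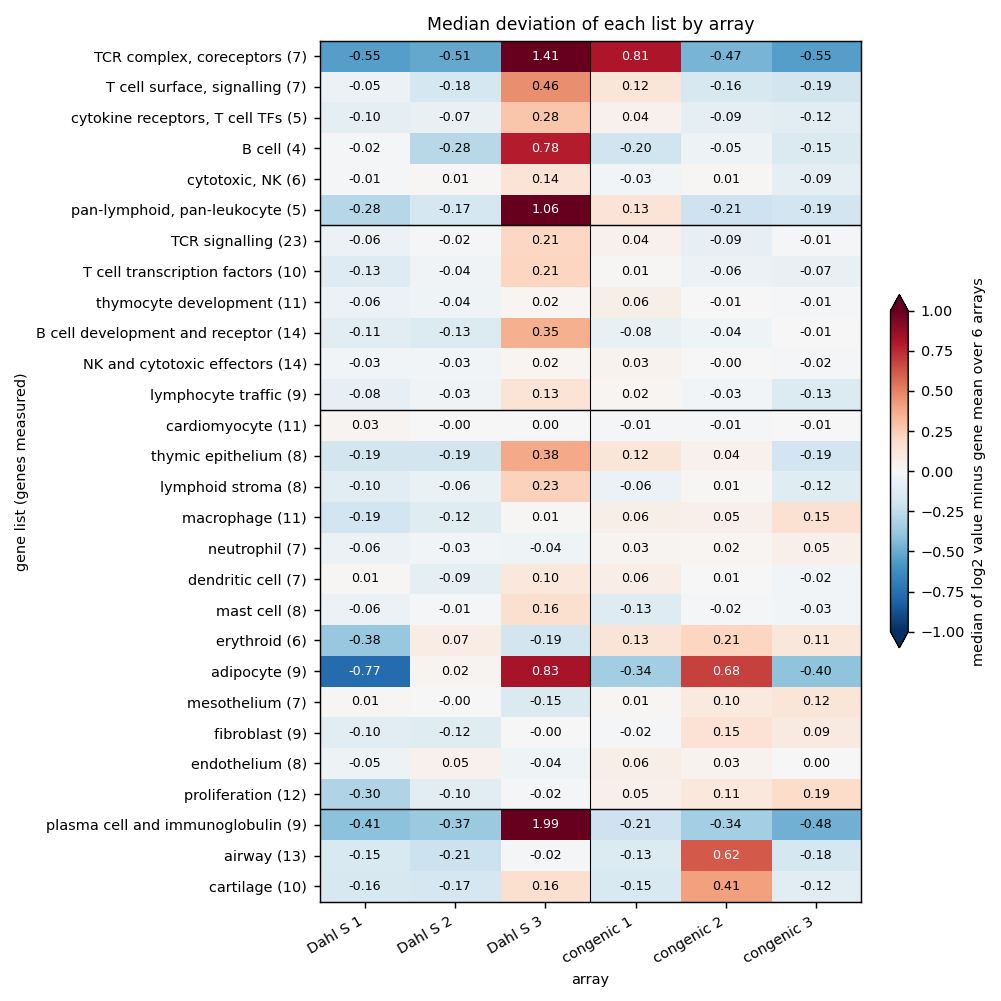
Median over each gene list (rows, with the number of genes measured) of the log2 value minus the gene's mean over the 6 arrays, for each array (columns), with the value printed in each cell and colours saturating at 1 log2 unit. The top block holds the roles of the lymphocyte list, with T cell receptor genes at 1.41 on Dahl S 3 and 0.81 on congenic 1 and B cell genes at 0.78 and -0.20, then come the other lymphocyte pathways, the cell type markers, and in the bottom block 3 lists chosen after the values had been seen.

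The comparison of the strains asked whether lymphocyte genes differed between congenic and Dahl S hearts. Of the 34 genes, 0 passed an adjusted p of 0.05 in limma, against 0.0354% of all probe sets, and 2 had an unadjusted p under 0.05, 1 in each direction, against 7.03% of all genes. The median difference, congenic minus Dahl S, was -0.13 over the 34 genes and -0.01 over all genes. Below 0 were 27 of the 34, against 53.3% of all genes. The median and the direction moved with single arrays. The count of calls stayed at 0, which says little, since only 11 of 31042 probe sets were called in the main fit. Without Dahl S 3 the median was 0.07 and 25 of the 34 lay above 0, with 2 genes at an unadjusted p under 0.05 (6.88% of all genes). Without congenic 1 the median was -0.28 and 31 lay below 0. Without Dahl S 1 or Dahl S 2 it was -0.24, and without congenic 2 or congenic 3 it was -0.05. Without both Dahl S 3 and congenic 1 the median was -0.03, with 23 of 34 below 0.

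The high arrays set the precision. Cd3g averaged 7.29 ± 1.58 in Dahl S and 7.44 ± 1.40 in the congenic strain (SD, n = 3 each), a difference of 0.15 with a 95% interval from -1.89 to 2.19 (limma adjusted p = 0.986). The interval thus held differences of more than 1 log2 unit in either direction. Cd3e averaged 6.84 ± 1.36 and 6.53 ± 0.84, a difference of -0.31 with an interval from -1.86 to 1.24 (limma adjusted p = 0.951). Lck averaged 8.14 ± 1.01 and 7.94 ± 0.73, a difference of -0.19 with an interval from -1.40 to 1.02 (limma adjusted p = 0.963). Without Dahl S 3 the difference of Cd3e was 0.47, and without congenic 1 it was -0.79, so 1 array decided its sign. Without both arrays the difference of Cd3e was -0.01, that of Cd3d -0.19 and that of Cd3g 0.26, the last with a limma adjusted p of 0.798.

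The largest differences of the list were those of B cell genes. Ms4a1 averaged 5.57 ± 1.39 in Dahl S and 4.90 ± 0.32 in the congenic strain (SD, n = 3 each), a difference of -0.67 with an interval from -2.04 to 0.71 (limma adjusted p = 0.865). Cd79b averaged 7.40 ± 0.76 and 6.83 ± 0.06, a difference of -0.57 with an interval from -1.31 to 0.18 (limma adjusted p = 0.798). Neither differed beyond the spread of its arrays. Without Dahl S 3 the difference was 0.12 for Ms4a1 and -0.13 for Cd79b.

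Gzma and Cd52, which were not high on either array, had an unadjusted p under 0.05 and did not pass after adjustment. Gzma had a difference of -0.24 with an interval from -0.42 to -0.07 (limma adjusted p = 0.731). Its strains did not overlap, and its values lay near 4, under the median probe set. Cd52 had a difference of 0.34 with an interval from 0.03 to 0.64 (limma adjusted p = 0.736), and its Dahl S values spread from 6.35 to 6.93, overlapping the congenic ones. Which genes had an unadjusted p under 0.05 changed with the arrays. Without Dahl S 2 there were 6 of the 34 (Cd2, Il7r, Cd79b, Cd22, Blk and Cd52), against 4.94% of all genes. Without Dahl S 1, congenic 1 or congenic 3 there was 1, Gzma in each case, against 9.59%, 5.27% and 4.93% of all genes.

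**Figure D5:**
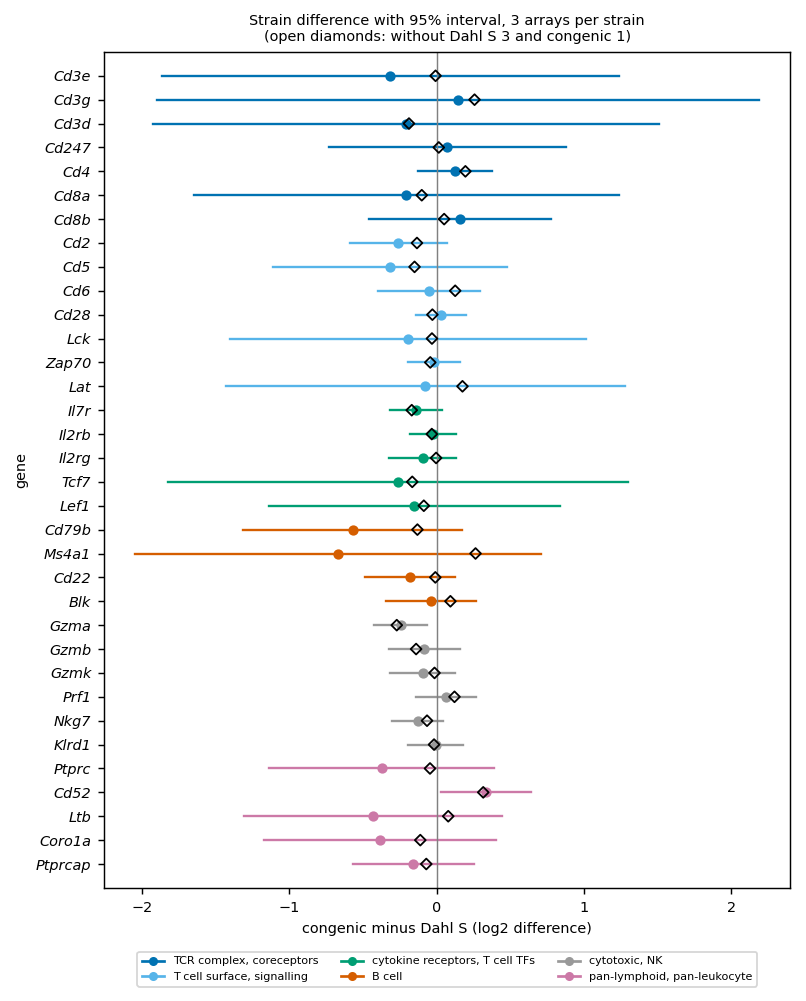
Log2 difference (congenic minus Dahl S) for the 34 genes (filled points) with 95% limma intervals from 3 arrays per strain, coloured by role, and the difference without Dahl S 3 and congenic 1 (open diamonds). The intervals of Gzma and Cd52 leave out 0, and 14 genes, among them Cd3e, Cd3g, Cd3d, Cd8a, Lck, Lat, Tcf7 and Ms4a1, have intervals that reach beyond 1 log2 unit.

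Of the 34 intervals, 20 lay within 1 log2 unit of 0 on both sides and 14 reached beyond it. The standard error of the difference had a median of 0.16 over the 34 genes and of 0.07 over all genes, and it reached 0.88 for Cd3g. The other pathway lists gave no call either: 0 genes passed an adjusted p of 0.05 in limma, against 0.0354% of all probe sets. These lists were T cell receptor signalling, T cell transcription factors, thymocyte development, B cell development, NK and cytotoxic effectors and lymphocyte traffic. At an unadjusted p under 0.05 they held 1 of 23, 1 of 10, 0 of 11, 1 of 14, 1 of 14 and 1 of 9 measured genes. Of all genes, 7.03% had such a p. With 3 pools per strain the p-values measure the spread between pools of 2 hearts, and precision is limited by the number of arrays.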

How the data were processed

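RNA of 6 heart pools, 3 per strain, was measured on Affymetrix rat expression arrays. The deposited log2 values, 1 per probe set, came from RMA by the authors, per the submitters' processing notes; RMA corrects the background and normalizes between arrays. RMA draws arrays to a common distribution, so a change shared by most genes would not show. Probe sets annotated to exactly 1 gene were used (20826 of 31099), and the brightest stood for each of 14217 genes. Per gene the 6 values, their deviation from the mean and the excess of an array over the others of its strain were computed. Strain differences were fitted in limma 3.58.1 (R 4.3.3; lmFit, then eBayes, with no covariate) over 31042 probe sets, leaving out 57 control probe sets, with Benjamini-Hochberg adjustment.

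The members, lists and tests were chosen with earlier results of these data known. Lists of plasma cell, airway and cartilage genes were added after the values had been seen. Named were all members, in full with a range of at least 0.5 or among the 2 widest of a role, the 10 genes most like the T cell receptor genes, and the 2 genes of widest range in each pathway list and each marker list described by gene. Beyond that rule, Cxcr5, Ebf1, Fcer2, Krt5, Pax1, Cldn4, Madcam1, Chst4 and Tnfsf11 were picked after their values had been seen. So were the immunoglobulin, airway and cartilage genes given below. Labels share replicate numbers between strains, but no source says that a number marks a cage or a day, and the deviations of equal numbers correlated at -0.07, -0.06 and -0.18, so the numbers were not used to pair arrays. Upstream sequences came from RefSeq (GRCr8). The fit was tested on simulated data. Alternatives left out each array in turn, left out both high arrays, changed the normalization, the probe set per gene and the moderation, and used the hybridization-control level and the replicate number as blocks.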

Additional observations from a re-analysis of the deposited data

How the results depend on the processing

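In each of 16 alternatives 0 of the measured genes of the list passed an adjusted p of 0.05 in limma. With 11 of 31042 probe sets called in the main fit, such a count says little. At an unadjusted p under 0.05 there were 2 (7.03% of all genes), and from 1 to 6 when 1 array was left out (4.68% to 9.59% of all genes). There were 0 on the 4 arrays whose hybridization controls were low (5.2% of all genes). When only probe sets at or above the median were kept, there was 1 of 13 genes (9.28% of all genes kept). After quantile normalization there were 3 (6.93% of all genes). The median difference of -0.13 ranged from -0.28 to 0.07 when 1 array was left out, was 0.10 on the same 4 arrays, and was -0.57 between Dahl S 3 and congenic 2, the arrays of high level (1 per strain, so no test). Of the 34 genes, 28 turned sign in at least 1 alternative, and Cd2, Cd79b, Cd22, Gzma, Nkg7 and Cd52 kept it in all that were run. With the replicate number as a block, 0 genes passed and 2 had an unadjusted p under 0.05 (5.42% of all genes). The median was again -0.13, since each number occurs once in each strain and such a block cannot change the differences. The medians by role on Dahl S 3 and congenic 1 kept their sign. Those of the T cell receptor genes, 1.41 and 0.81, were 0.91 and 0.69 with the mean of all probe sets per gene and 1.74 and 1.25 with only probe sets at or above the median, and that of T cell signalling genes on congenic 1, 0.12, was 0.08 with the probe set of widest range. With only probe sets at or above the median, those of cytokine receptors and transcription factors were 0.90 and 0.54 and that of cytotoxic and NK genes on congenic 1 was -0.11, since fewer genes remained. The 34 genes are mostly dim, so low levels limit what could be seen.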

Other observations

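Several genes of antibody-secreting cells, from a list put together after the values had been seen, were high on Dahl S 3 alone. Of 11 genes 9 were measured and 8 were highest on that array (26.5% of all genes), 5 of them by at least 1 log2 unit over the other Dahl S arrays (0.338% of all genes). In 4 of the 9 Dahl S 3 and congenic 1 were the highest pair (7.73% of all genes). Ighl2, an immunoglobulin heavy chain gene, read 6.35, 6.47 and 12.24 in Dahl S and 6.58, 6.47 and 6.19 in the congenic strain. Mzb1, which helps to fold and secrete antibody, read 5.73, 5.63 and 8.68 and then 5.83, 5.74 and 5.74, and the light chain gene Iglc1 reached 8.05 on Dahl S 3 against 5.55 to 5.85 elsewhere. The general secretory factor Xbp1 spanned only 10.85 to 11.00, and Prdm1, a plasma cell factor that other cells also express, was lowest on Dahl S 3 (7.05). Congenic 1, the other array with high CD3 genes, was 0.25 above the mean of the other congenic arrays for Ighl2, 0.09 for Mzb1 and 0.30 for Iglc1.

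A few genes of airway and cartilage, also listed after the values had been seen, were high on Dahl S 3 and congenic 2 and not on congenic 1. Of 13 measured airway genes, 3 were at least 1 log2 unit above the rest of the strain on Dahl S 3 and 6 on congenic 2. Of all 14217 genes, 48 and 17 were. In 5 of the 13 these arrays were the highest pair, as in 1273 of all 14217 genes. The airway median, relative to each gene's mean over the arrays, was -0.02 on Dahl S 3 and 0.62 on congenic 2, so the list as a whole was high on congenic 2 only. Of 10 measured cartilage genes, 2 passed on Dahl S 3 and 3 on congenic 2, and in 7 these arrays were the highest pair. The counts over all genes are those given for the airway list. The cartilage medians were 0.16 and 0.41. The club cell secretory gene Scgb1a1 read 5.21, 5.41 and 9.14 in Dahl S and 5.02, 10.16 and 5.03 in the congenic strain. The airway gene Bpifa1 read 5.79, 6.52 and 8.91 and then 5.82, 9.05 and 5.69. The cartilage collagen Col2a1 read 4.65, 4.71 and 6.61 in Dahl S and 4.48, 7.59 and 4.66 in the congenic strain, and Col10a1 read 4.81, 4.87 and 7.04 and then 4.67, 7.05 and 4.87. These 4 genes, picked for their values, were thus high on Dahl S 3 and on congenic 2, an array without high CD3 genes. Sftpc, the surfactant gene of the lung, was high on congenic 2 (7.21) and not on Dahl S 3 (4.84). The hybridization controls were bright on Dahl S 3 and congenic 2 as well. Why these pools differ was not tested.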
